A study of Mus musculus with 2 samples.

Results

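The cells described here are T cells without Trdc, taken from inflamed mouse ear skin by 1 rule on their reads. A barcode was kept when at most 20% of its reads were mitochondrial and at least 200 genes had a read. Its reads of Cd3e, Cd3g and Cd3d had to sum to at least 100 CPM (reads of a gene scaled to 1000000 reads of the cell), with Trdc, Cd163l1, Ncr1 and Pdgfra each under 50 CPM and Csf1r under 100 CPM. The rule kept 242 of the 8359 barcodes within the mitochondrial and gene limits, and 219 of them carried 1 clear hashtag, out of 7113 barcodes with 1 clear hashtag in all (3.08%). These 219 cells are called members. Because members were chosen by their Cd3e, Cd3g and Cd3d reads and by low Trdc, Cd163l1, Ncr1, Csf1r and Pdgfra, the levels of these 8 genes are given only as descriptions.

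The study followed IgE-mediated chronic allergic inflammation (IgE-CAI), a delayed swelling of the ear skin set off by an allergen and its IgE. Wild-type (WT) BALB/c mice and Ccr2-/- BALB/c mice, which carry the germline Ccr2tm1Mae allele, were young adult males. Every mouse received 300 μg of anti-TNP IgE intravenously and, on the next day, 10 μg of TNP12-OVA in the right ear, so that no pool is untreated. Ear skin was taken on days 3 and 5 after the challenge, giving 4 pools in the order WT at day 3, WT at day 5, Ccr2-/- at day 3 and Ccr2-/- at day 5. The cells were digested with Liberase, cleared on Percoll, labelled with hashtag antibodies and mixed, and 10000 labelled cells were loaded into 1 single-cell run. The deposited matrix holds 8953 barcodes and 35208 gene rows. Each genotype and day is thus 1 pool, the number of mice in a pool is not given in the sources used here, and there is no replicate of any genotype at a given day. The pools held 1537, 1041, 2186 and 2349 hashtagged barcodes in the order above, and the members 40, 14, 77 and 88. A member had a median of 14175 reads and 1539 genes. Values for the 4 pools are given below always in this order.

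A conventional T cell recognises peptide on MHC molecules through an alpha-beta receptor, whose constant parts are encoded by Trac, Trbc1 and Trbc2. The receptor has no signalling tail of its own and reaches the surface only with the CD3 chains, encoded by Cd3e, Cd3g, Cd3d and Cd247, which recruit the kinases Lck and Zap70. Gamma-delta T cells carry the same CD3 chains with another receptor, marked by Trdc. In skin, helper, cytotoxic and regulatory T cells patrol or reside, and regulatory T cells, which need the transcription factor Foxp3, restrain inflammation.

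The promoters of the 3 chains that chose the members are shown because the chains did not mark the same barcodes, although the 3 genes lie side by side. Cd3g (chromosome 9, 44969572 to 44980431) and Cd3d (44981769 to 44987052) stand head to head with 1337 bases between them, and Cd3e (44998735 to 45009663) follows. Each sequence runs from 250 bases before to 50 after a RefSeq start in GRCm38.p6, with matches to 2 motifs on either strand in capitals. For Cd3d and Cd3e this start lies inside the gene bounds given above. The first, CACCTG, is an E-box, known as a site of E proteins, and the second, AGATAA, is known as a site of the GATA factors.
Cd3d, chr9:44981536-44981835, plus strand: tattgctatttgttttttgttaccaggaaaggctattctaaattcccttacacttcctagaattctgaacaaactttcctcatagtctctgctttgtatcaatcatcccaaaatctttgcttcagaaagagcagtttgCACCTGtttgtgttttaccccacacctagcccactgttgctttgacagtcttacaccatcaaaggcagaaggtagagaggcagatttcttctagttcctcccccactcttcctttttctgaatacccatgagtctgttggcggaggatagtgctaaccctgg
Cd3g, chr9:44980382-44980681, minus strand: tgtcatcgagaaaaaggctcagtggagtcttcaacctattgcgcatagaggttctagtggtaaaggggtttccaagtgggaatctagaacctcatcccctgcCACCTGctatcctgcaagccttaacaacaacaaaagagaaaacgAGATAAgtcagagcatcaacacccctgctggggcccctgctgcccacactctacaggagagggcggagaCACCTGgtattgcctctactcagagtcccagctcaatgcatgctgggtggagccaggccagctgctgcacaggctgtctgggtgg
Cd3e, chr9:45009562-45009861, minus strand: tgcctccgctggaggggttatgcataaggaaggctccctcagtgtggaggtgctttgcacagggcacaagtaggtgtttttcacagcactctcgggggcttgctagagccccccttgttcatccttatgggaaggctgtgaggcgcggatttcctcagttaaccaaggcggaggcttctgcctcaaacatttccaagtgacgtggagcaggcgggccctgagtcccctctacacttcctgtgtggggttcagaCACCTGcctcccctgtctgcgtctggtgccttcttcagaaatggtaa
The Cd3d promoter held 1 CACCTG and no AGATAA, the Cd3g promoter 2 CACCTG and 1 AGATAA, and the Cd3e promoter 1 CACCTG. Among 32851 RefSeq promoters of this length, 20.2% held CACCTG and 11.2% held AGATAA, so both motifs are common and their presence is a description only.

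The label was checked with genes that the rule did not use. A read of Trac, Trbc1 or Trbc2 was found in 130 of the 219 members, which are called members with a receptor read, and in none of the other 89. By pool the members with a receptor read were 34 of 40 (85.0%), 12 of 14 (85.7%), 41 of 77 (53.2%) and 43 of 88 (48.9%). The mean share of both Ccr2-/- pools was 34.3 percentage points below that of both WT pools (two-sided exact permutation test, p = 0.333, the smallest that 2 pools against 2 can give). The pools of the genotypes did not overlap in this share.

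The CD3 chains divided the members in the same way. Of 73 members with reads of both Cd3d and of Cd3e or Cd3g, 71 had a receptor read (97.3%, exact 95% interval 90.5 to 99.7%). Of 61 with Cd3e or Cd3g but no Cd3d read, 44 did (72.1%, 59.2 to 82.9%), and of 85 with Cd3d alone only 15 did (17.6%, 10.2 to 27.4%). Members with Cd3d alone numbered 5, 2, 26 and 52 across the pools, and they were shallower, with a median of 9199 reads against 18818 for members with both. The sets thus differ both in the chains they carry and in depth.

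Members without a receptor read carried genes of granulocytes. Of the 89, 70 had Cd3d as their only CD3 chain, and in these the neutrophil list (S100a8, S100a9, Csf3r, Retnlg, Cxcr2 and Ly6g, all with reads) summed to 29575 CPM and reached 1000 CPM in 56 cells. The other 19 had Cd3e or Cd3g, 14 of them in the Ccr2-/- day 3 pool. In these 14 the mast cell list (the proteases Cpa3, Cma1, Mcpt4 and Tpsb2 and the growth factor receptor Kit) summed to 73728 CPM and reached 1000 CPM in 11, whereas it stood at 287 CPM in the 2 cells of WT day 3 and at 0 in the 3 of Ccr2-/- day 5. The basophil list (Mcpt8, Cd200r3, Fcer1a and Gata2) stood at 4230 CPM in the 19 cells and reached 1000 CPM in 13. In all, 76 of the 89 members without a receptor read, but 9 of the 130 with one, reached 1000 CPM on at least 1 of these 3 lists. By pool the members with a receptor read that did so numbered 1, 0, 2 and 6. Lists of other cells were read as well. The fibroblast list (Col1a1, Col1a2, Col3a1, Dcn, Lum and Pdgfra) reached 1000 CPM in 51 of the 130 and in 60 of the 89. The natural killer cell list (Klrb1c, Eomes, Klra8 and Gzma) reached it in 6 of the 130 and in 1 of the 89.

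**Figure D1:**
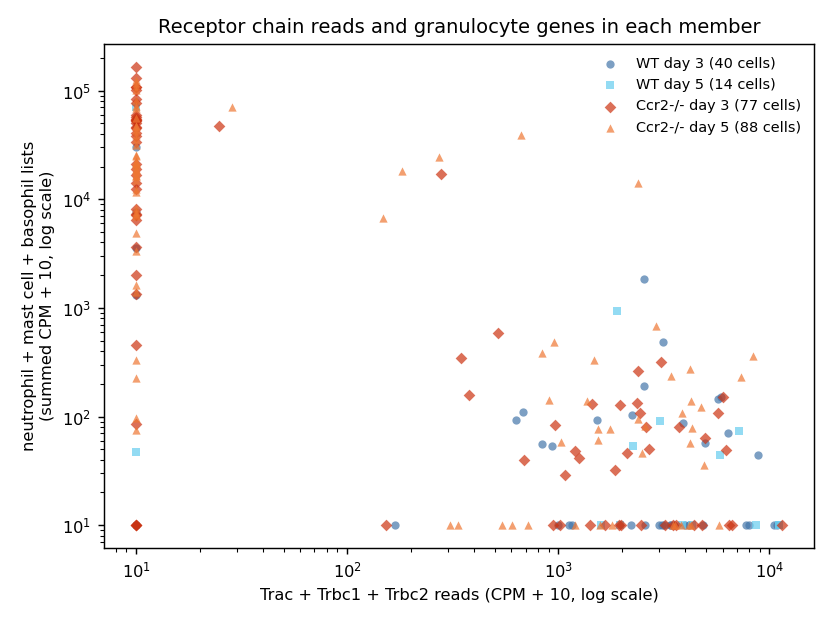
Each point is 1 member, by its summed CPM of Trac, Trbc1 and Trbc2 (horizontal) and of the neutrophil, mast cell and basophil lists (vertical), both plus 10 on log scales and with a symbol for each pool. The 89 members without a receptor read form the column at the left edge, most of it from the Ccr2-/- pools, and 76 of them reached 1000 CPM on at least 1 granulocyte list.

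The chains were then counted in barcodes with granulocyte genes that the rule had not kept. Among 1340 such barcodes with a neutrophil list of at least 3000 CPM, a Cd3d read was found in 40 (2.99%), a Cd3e read in 3 (0.224%) and a Trac read in 4 (0.299%). Among 134 with a mast cell list of at least 3000 CPM, 14 had a Cd3d read and 5 a Cd3e read. With the cells that the rule kept, the counts were 95 Cd3d and 4 Cd3e of 1397 and 15 and 15 of 145. Whether doublets, free RNA or transcription in granulocytes gave these reads was not tested, and no doublet caller was run. The data thus go against the label for the 76 members with granulocyte genes and no receptor read. The other 13 had neither a receptor read nor such a list at 1000 CPM, and Thy1, a surface protein of mouse T cells, was read in 20 of the 89. Levels below are given for the members with a receptor read, and shares of cells and the comparisons of genotypes and days also for all members.

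A receptor read was not particular to members. Trac was read in 98 of 219 members, 22 of 60 gamma-delta cells (same limits, with Trdc or Cd163l1 at 50 CPM or more), 22 of 214 natural killer (NK) cells (Ncr1 at 50 CPM or more, CD3 sum under 100 CPM) and 38 of 2286 fibroblasts (1.66%). Trbc1 was read in 85 members and in 194 NK cells (90.7%). A read of any of Trac, Trbc1 and Trbc2 was found in 130 members, 47 gamma-delta cells, 201 NK cells and 246 fibroblasts. The fibroblasts were deeper, with a median of 92497 reads against 16072 in the members with a receptor read. Trbc1 and Trbc2 are near-identical genes, and the counting could split reads between them. Reads of the variable segments were sparse: 24 of 37 Trav segments had a read, in 20 members, and 11 of 14 Trbv segments, in 16 members, all of them with a receptor read. The most frequent, Trav5-1 and Trbv13-2, were each read in 4 members, and segments of a family share sequence. A gamma chain read was present in 16 members, against 44 of 60 gamma-delta cells.

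The rule has a threshold at 100 CPM. The barcode kept nearest to the CD3 limit had 100.9 CPM, and the nearest barcodes left out had 98.0 and 96.7 CPM. Of the 242 barcodes kept, 24 had a CD3 sum of 100 to 150 CPM, and 32 were left out at 50 to 100 CPM. A limit of 200 CPM left 38, 13, 58 and 75 members in the pools. For Trdc, which the rule keeps under 50 CPM, the highest member had 21.97 CPM, in the only member with a Trdc read. The lowest gamma-delta cell called on Trdc had 94.5 CPM. Since Trdc itself chose both sets, this gap is a description only.

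Members formed 2.60% (exact 95% interval 1.87 to 3.53%) and 1.34% (0.737 to 2.25%) of the cells of the WT pools. In the Ccr2-/- pools they formed 3.52% (2.79 to 4.38%) and 3.75% (3.02 to 4.595%). Both Ccr2-/- pools were above both WT pools, by 1.66 percentage points on average (exact permutation p = 0.333), and by 1.06 points with a CD3 limit of 200 CPM. Members with a receptor read formed 2.21% (1.54 to 3.08%), 1.15% (0.597 to 2.005%), 1.88% (1.35 to 2.54%) and 1.83% (1.33 to 2.46%). For these the genotypes overlapped and differed by 0.171 points (exact permutation p = 1). WT day 5 held the lowest share in either count, 12 members with a receptor read, and its interval overlaps those of every other pool for these members. Between days the mean share of members with a receptor read was 0.552 points lower at day 5 (exact permutation p = 0.333). A share depends on how many other cells a pool holds, and all intervals cover counting error only.

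**Figure D2:**
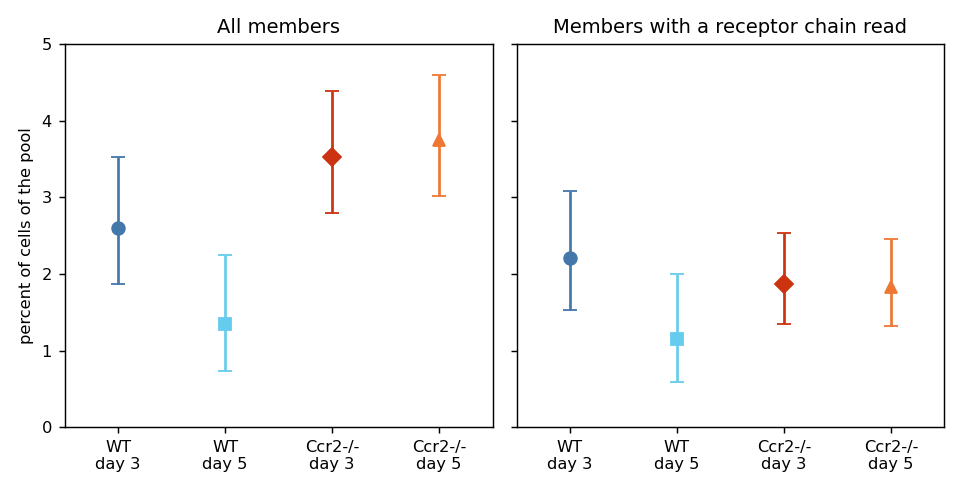
Share of hashtagged cells that were members (left) and members with a receptor read (right) in each pool, in percent, with exact 95% binomial intervals as bars. All members lie at 3.52 and 3.75% in the Ccr2-/- pools against 2.60 and 1.34% in the WT pools, whereas members with a receptor read lie between 1.15 and 2.21% with overlapping intervals.

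Levels are given below for the 130 members with a receptor read, as CPM of their summed reads in each pool. The pools held 34, 12, 41 and 43 such cells and 602529, 222738, 1014718 and 988824 reads, so that 3 reads correspond to 4.98, 13.5, 2.96 and 3.03 CPM. Reads were not collapsed to molecules and are partly PCR copies, so that a Poisson interval on reads is too narrow, and the number of cells behind a value is the better guide to its precision. Shares of cells with a read are given after thinning each cell to 10000 reads, which left out 8, 2, 7 and 9 shallower cells and kept 26, 10, 34 and 34. Beside them stands the share in fibroblasts thinned in the same way (2140 cells), which should lack T cell genes.

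The alpha-beta receptor was read in every pool. Trac stood at 1298, 1675, 566 and 873 CPM, and its share of cells was not counted as a result, since it defines these cells. Cd247, the CD3 zeta chain, which the rule did not use, stood at 159, 189, 211 and 141 CPM and was read in 41 of 130 cells. Lck, the kinase that starts receptor signalling, stood at 166, 247, 196 and 263 CPM. Lat, the adaptor downstream of it, stood at 423, 274, 323 and 303 CPM, in 79 cells. Zap70, the kinase that binds the phosphorylated CD3 chains, stood at 161 and 139 CPM in the WT pools and at 47.3 and 54.6 CPM in the Ccr2-/- pools, on 34 cells. Thy1 stood at 1787, 3013, 1879 and 1577 CPM, and in the members without a receptor read at 87.0 CPM over all pools.

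The co-receptors divide helper from cytotoxic T cells: CD4 binds MHC class II and CD8, made of Cd8a and Cd8b1, binds class I. Without thinning, 25 of the 130 members with a receptor read had a Cd4 read only, 23 a Cd8a or Cd8b1 read only, 7 both and 75 neither, so that most cells could not be placed at this depth. Cd4 stood at 141, 108, 182 and 215 CPM, in 8, 3, 8 and 13 cells. Cd8a stood at 302, 588, 48.3 and 178 CPM, in 5, 2, 2 and 3 cells, and Cd8b1 at 309, 521, 28.6 and 177 CPM, in 10, 3, 6 and 10 cells. In all, 12 cells had a Cd8a read, 29 a Cd8b1 read and 11 both, so that a CD8 call could rest on Cd8b1 alone. A Foxp3 read was found in 11 of the cells with a Cd8a or Cd8b1 read. After thinning, CD4 cells formed 15.4, 0, 23.5 and 26.5% (fibroblasts 0.607%), and the 0 of 10 cells in WT day 5 allows a share of up to 30%. CD8 cells formed 26.9, 30.0, 11.8 and 17.6% (fibroblasts 2.57%). The Ccr2-/- pools were above the WT pools for CD4 by 17.3 points and below them for CD8 by 13.8 points, without overlap (exact permutation p = 0.333 for both). Without thinning the CD4 shares were 17.6, 16.7, 19.5 and 20.9% and the CD8 shares 23.5, 25.0, 14.6 and 13.95%. Over all members the CD4 shares were 14.8, 0, 14.04 and 16.4% and the CD8 shares 25.9, 27.3, 15.8 and 12.7%, so that the CD4 shares of the genotypes overlapped. Another random thinning of all members gave CD4 shares of 18.5, 9.09, 14.04 and 18.2%, and the genotype difference was 2.304 points against 7.79, so that its size moves with the draw.

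Costimulatory and checkpoint receptors tune the response to antigen. Icos, an inducible costimulator, stood at 914, 1302, 843 and 751 CPM and was read in 67.3% of thinned cells (fibroblasts 0.888%). Ctla4, an inhibitory receptor that regulatory T cells hold constantly, stood at 1522, 485, 794 and 1014 CPM and was read in 51.9% (fibroblasts 0.654%). Cd28, the receptor for the second signal of activation, stood at 395 CPM (exact Poisson 95% interval 346 to 449), 480 (394 to 580), 123 (103 to 147) and 130 (109 to 155), in 17, 7, 14 and 15 cells. Both WT pools were thus above both Ccr2-/- pools for Cd28. Tnfrsf18 (GITR) stood at 247, 171, 220 and 318 CPM. Pdcd1, the PD-1 gene, was read in 8 cells, Tigit in 17, Lag3 in 12 and Havcr2 in 8, none of them in WT day 5.

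Regulatory T cell genes were read in every pool. Foxp3 stood at 295, 171, 261 and 240 CPM, in 12, 3, 13 and 12 cells. After thinning it was read in 8 of 26, 3 of 10, 10 of 34 and 11 of 34 cells, or 30.8, 30.0, 29.4 and 32.4%, against 0.0467% of fibroblasts. The pools lay within 3 points of each other, and the genotypes differed by 0.498 points (exact permutation p = 1). Over all members the shares were 29.6, 27.3, 17.5 and 20%, a difference of -9.68 points (exact permutation p = 0.333), in which the members without a receptor read enter the denominator of the Ccr2-/- pools most. Il2ra, the high-affinity chain of the interleukin-2 receptor, stood at 313.7, 144, 622 and 374 CPM, and Ikzf2 (Helios) at 294, 471, 260 and 332 CPM. Il10, an anti-inflammatory cytokine, was read in 10 cells.

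Among helper genes, Gata3, the type 2 regulator that innate lymphoid and regulatory T cells also use, stood at 332, 283, 188 and 157 CPM, in 10, 6, 16 and 15 cells. Il1rl1, the interleukin-33 receptor, stood at 174, 350, 332 and 405 CPM, and at 730 CPM in the members without a receptor read. Il4 was read in 0, 0, 2 and 3 cells and Il13 in 0, 0, 1 and 2 cells. All 5 cells with an Il4 read and all 3 with an Il13 read reached 1000 CPM on a granulocyte list, 4 and 2 of them on the basophil list. Il5 was read in 1 cell. Ifng, the type 1 cytokine, stood at 239, 4.49, 1.97 and 40.4 CPM, in 8, 1, 1 and 4 cells, none of which carried a granulocyte list at 1000 CPM. Its regulator Tbx21 stood at 129, 22.4, 42.4 and 13.2 CPM. Il17a was read in 5 cells. Il3, Il21, Csf2 and Ccl1 had no read in these cells.

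Cytotoxic genes rested on few cells. Gzmb, a granzyme that induces death of target cells, stood at 1037, 629, 380 and 1527 CPM, in 15, 5, 10 and 16 cells, and 1 cell gave 38.7% of its reads. The 3 of these cells with a granulocyte list at 1000 CPM held 46.1% of its reads. Nkg7, a granule protein, stood at 581, 741, 238 and 198 CPM, in 31 cells in all. Ccl5, a chemokine of cytotoxic and memory cells, stood at 798, 1181, 100.5 and 458 CPM, in 8, 2, 4 and 4 cells, with 30.6% of the reads in 1 cell. Klrd1, an NK receptor chain, stood at 171, 238, 6.90 and 31.4 CPM, in 10 cells. For Nkg7, Ccl5 and Klrd1 both WT pools were above both Ccr2-/- pools, and for Gzmb the pools overlapped. The cytotoxic list did not go 1 way: of 11 genes tested between genotypes in these members, 4 were higher and 7 lower in Ccr2-/-, with 0 called.

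Genes of resident and of circulating T cells were both present. Rgs1, a brake on chemokine receptor signalling, stood at 1695, 2739, 2250 and 2020 CPM and was read in 72.1% of thinned cells (fibroblasts 6.73%). Cd69, which holds T cells in tissue, stood at 486, 678, 478 and 263 CPM, and Itgae (CD103), which binds E-cadherin of the epidermis, at 214, 543, 313.4 and 142 CPM. Cxcr6 stood at 128, 139, 279 and 80.9 CPM. Of the genes of circulating and naive cells, Tcf7 stood at 161, 462, 233 and 387 CPM, and Ccr7, the receptor for lymph node entry, was read in 14 cells. Il7r, the receptor for a survival cytokine, stood at 523, 858, 370 and 320 CPM. WT day 5, which rests on 12 cells, was the highest pool for Rgs1, Cd69, Itgae, Tcf7 and Il7r but not for Cxcr6. The order of the other pools was not shared by these genes.

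**Figure D3:**
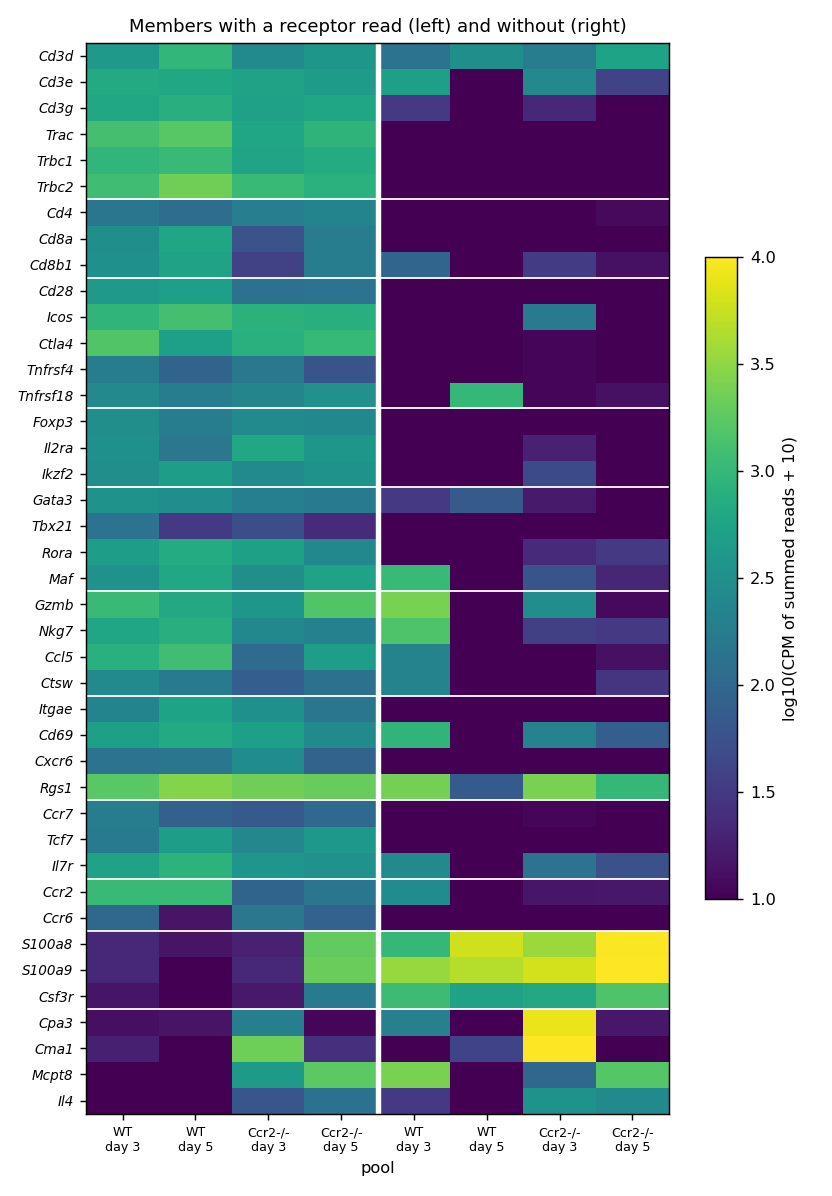
Levels of T cell genes and of granulocyte genes (lowest rows) in the members with a receptor read (left) and without (right), by pool, as log10 of CPM of summed reads plus 10. At the left, Ccr2 and Cd28 are lower in both Ccr2-/- pools while Foxp3 lies between 171 and 295 CPM; at the right, where WT day 5 holds 2 cells, S100a8 and S100a9 are the brightest genes of Ccr2-/- day 5.

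Genes of cell division and of early stress were read in the members too, and fibroblasts, which use the same genes, are no background for them. Mki67, a proliferation marker, was read in 20 of the 130 cells, and 55.1% of its reads came from 1 cell. Fos, an immediate early gene that tissue digestion can induce, was read in 89.4% of thinned members and in 98.2% of fibroblasts. Of the interferon-inducible genes, Gbp4, a GTPase of cell-intrinsic defence, was read in 30.8% against 5.19% of fibroblasts, and stood at 171, 121, 71.9 and 204 CPM, so that the genotypes overlapped.

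Ccr2, the gene targeted in the mutant mice and the receptor by which inflammatory monocytes and some T cells follow CCL2, stood at 1064 CPM (983 to 1149) and 1028 CPM (899 to 1170) in the WT pools. In the Ccr2-/- pools it stood at 82.8 CPM (66.03 to 102) and 141 CPM (118 to 166). The cells with a read numbered 21 of 34, 7 of 12, 11 of 41 and 14 of 43, and the intervals of the genotypes did not overlap. Over all members Ccr2 stood at 1007, 896, 48.9 and 92.4 CPM. The part of the transcript that the allele lacks is not given in the sources used here, so the reads in the Ccr2-/- pools do not tell whether a functional transcript is made. Among the other chemokine receptors, Cxcr3 stood at 94.6, 121, 43.4 and 22.2 CPM, on 14 cells. Cxcr4 stood at 173, 256, 155 and 137 CPM and Ccr6 at 89.6, 4.49, 146 and 76.9 CPM.

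The genotypes were compared over all genes with the summed reads of each pool, 2 pools against 2, with the day as a covariate, which leaves 1 residual degree of freedom (edgeR's quasi-likelihood test, Benjamini-Hochberg adjustment). Over all members, Ccr2 was the only gene called lower in the Ccr2-/- pools, with a log2 fold change of -3.66 (SE 0.50, edgeR adjusted p = 0.0205). Of 9470 genes tested, 28 were called (0.296% of genes), 27 higher (0.285%) and 1 lower (0.0106%), all with the same sign at both days. The median of all genes was 0.33 on the log2 scale, and changes are to be read against it. Among the genes that rose were Il1rn, the interleukin-1 antagonist, by 6.66 (SE 0.58, edgeR adjusted p = 0.00426), S100a9, a calprotectin subunit, by 3.54 (SE 0.33, edgeR adjusted p = 0.0043), and the neutrophil chemokine receptor Cxcr2 by 3.38 (SE 0.52, edgeR adjusted p = 0.03). The mast cell proteases Cma1 and Mcpt4 were called higher too, with 8892 and 10096 CPM in Ccr2-/- day 3 but 9.76 and 5.85 CPM in Ccr2-/- day 5, against 7.70 and 41.6 CPM in WT day 3, so that 1 pool carries both calls. The cytokine Il4 rose as well, with 1 read in the WT members and 585 in the Ccr2-/- members (edgeR adjusted p = 0.0395). Basp1 had no read in the WT members and was at least 83.9-fold higher in the Ccr2-/- members, with the WT level set to 3 reads over both pools. The neutrophil list had 3 of 5 tested genes higher, the mast cell list 2 of 4 and the basophil list 1 of 4. DESeq2 called 114 genes, whereas with hashtags called at 10 times the next edgeR called 0 (374 at an unadjusted p under 0.05), with Ccr2 at an edgeR adjusted p of 0.212.

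Of the lists of T cell genes, only 3 members were called in this fit: Ccr2, Il4 and Csf1, a macrophage growth factor, which was higher by 2.83 (SE 0.41, edgeR adjusted p = 0.0224). Of the CD3 and receptor chain list 0 of 7 passed, with a median of -0.76, of receptor signalling 0 of 14 with a median of -0.31, of regulatory T cell genes 0 of 12 with a median of -0.32, and of cytotoxic genes 0 of 11 with a median of -1.56. The CD3 and receptor chain list includes Cd3d, Cd3e and Cd3g, which chose the members, so that its count and median are descriptions only. Cd28 had a log2 fold change of -2.20 (SE 0.51, edgeR adjusted p = 0.177) and Nkg7 of -2.04 (SE 0.44, edgeR adjusted p = 0.133). Since 6 and 2 of the WT members but 36 and 45 of the Ccr2-/- members lacked a receptor read, the fit was repeated on the 130 members that had one.

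In the members with a receptor read, 7 of 8298 genes were called (0.0844% of genes), all higher: Hdc, Mcpt8, Cma1, Ccl3, Ccl4, Ier3 and a gene model. Hdc makes histamine, Mcpt8 is a basophil protease and Cma1 a mast cell protease. The 9 members with a granulocyte list at 1000 CPM held 2155 of 2156 Mcpt8 reads, 99.4% of Ccl3, 98.8% of Cma1, 98.3% of Hdc, 95.3% of Ccl4 and 91.5% of Ier3 reads, and 75.0% of those of the gene model. Mcpt8 had no read in the WT members and was at least 296-fold higher against 3 reads over both WT pools. Only Cma1 and Ier3 were called in both fits, 7.14% of the 28 and 28.6% of the 7. In this fit 0 of 12 regulatory T cell genes were called, 8 higher and 4 lower without a call, with a median of 0.36. The receptor signalling list had 0 of 14 called with a median of -0.08, and the cytotoxic list 0 of 11 with a median of -1.04. The median of all genes was 0.25, so the regulatory list lay below it over all members but not here. Ccr2 had a log2 fold change of -3.16 (SE 0.42, edgeR adjusted p = 0.0848), Cd28 of -1.67 (SE 0.44, edgeR adjusted p = 0.999) and Foxp3 of 0.26 (SE 0.48, edgeR adjusted p = 0.999). After leaving out every barcode with markers of other cell types as well, 0 of 6582 genes were called by edgeR (0% of genes, 142 at an unadjusted p under 0.05), and Ccr2, with a log2 fold change of -2.69 and the smallest p of all genes, had an edgeR adjusted p of 0.628. With 1 residual degree of freedom, a gene without a call is not shown to be alike in both genotypes.

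Between day 5 and day 3, 0 of 9470 genes were called over all members by edgeR (0% of genes), with 162 at an unadjusted p under 0.05 and 4 called by DESeq2. In the members with a receptor read 1 of 8298 was called (0.0121% of genes), Cma1, lower at day 5 by -7.08 on the log2 scale (edgeR adjusted p = 0.0423). Of the reads of Cma1 in these members, 98.6% came from 1 cell, in the Ccr2-/- day 3 pool.

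Members with a Foxp3 read were set against the other members with a receptor read. Without thinning, 40 cells had a Foxp3 read and 90 had none, and their median depths were 15188.5 and 16448 reads. Ctla4 was read in 40 of 40 cells with a Foxp3 read and in 27 of 90 others, at 2410 against 417 CPM. It was higher in the Foxp3 cells of every pool: 3303 against 486 CPM, 1845 against 0, 2405 against 307 and 1888 against 608. Tnfrsf4 (OX40), a costimulatory receptor, stood at 376 against 7.504 CPM, and Il2ra at 1111 against 150 CPM, again with the Foxp3 cells above the others in all 4 pools. Ikzf2 stood at 653 against 166 CPM, Tnfrsf18 at 510 against 151, and Klrg1, a marker of effector and regulatory cells, at 351 against 34.5, each higher in 4 of 4 pools. Ccr2 was read in 28 of 40 Foxp3 cells (70.0%) and in 25 of 90 others (27.8%). Its level was higher in the Foxp3 cells of 4 of 4 pools, at 1661 against 717, 2221 against 603, 102 against 77.0 and 408 against 16.3 CPM.

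Other genes were lower in the Foxp3 cells of every pool. Tcf7 was read in 2 of 40 against 44 of 90 cells, at 8.43 against 406 CPM. Cxcr6 stood at 7.23 against 233 CPM, Nkg7 at 2.41 against 476, Gzma at 7.23 against 473 and Cd69 at 133 against 540. Ctsw, a protease of cytotoxic cells, had no read in the Foxp3 cells and 194 CPM in the others. Gzmb did not follow these genes, at 1233 against 819 CPM and with the Foxp3 cells higher in 3 of 4 pools. In Ccr2-/- day 5 it stood at 443 against 2032 CPM. Of all Gzmb reads in both sets, 46.1% lay in 3 members with a granulocyte list at 1000 CPM. Of the 40 Foxp3 cells, 18 had a Cd4 read, 11 a Cd8b1 read, none a Cd8a read, and 17 no co-receptor read.

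**Figure D4:**
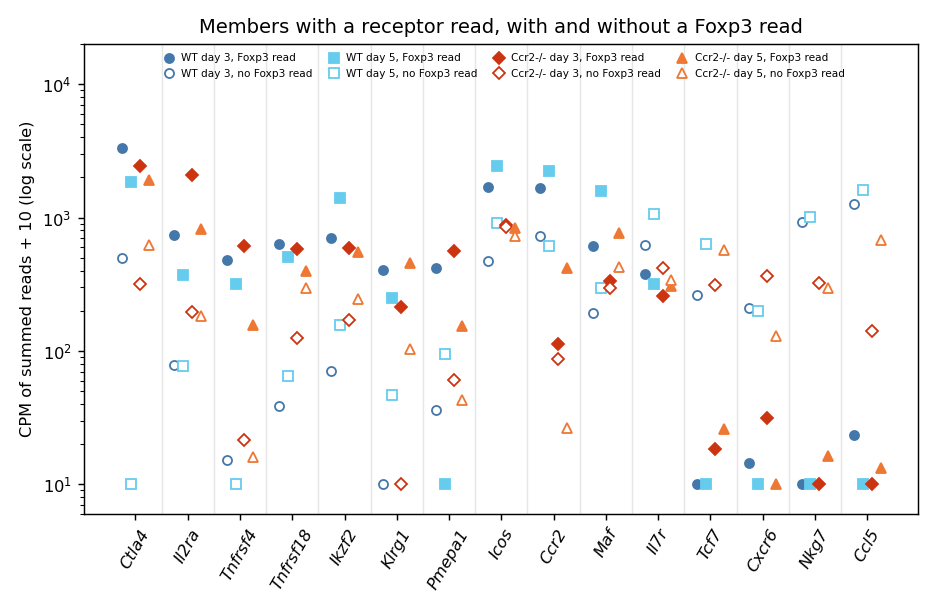
Levels in members with a receptor read, with (filled) and without (open) a Foxp3 read, by pool, as CPM of summed reads plus 10 on a log scale. Ctla4, Il2ra, Tnfrsf4 and Tnfrsf18 are higher in the filled symbols of every pool, and Tcf7, Cxcr6, Nkg7 and Ccl5 are lower.

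The test of these differences used thinned classes and the 3 pools with at least 5 cells in each class, with 8 Foxp3 cells in WT day 3 and 10 and 11 in the Ccr2-/- pools, and the pool as a block, which leaves 2 residual degrees of freedom. Of 6850 genes, 30 were called (0.438% of genes), 7 higher (0.102%) and 23 lower (0.336%), and 28 of the 30 had the same sign in all 3 pools. The median of all genes was -0.44. The genes that rose were Tnfrsf4 by 5.96 on the log2 scale (SE 0.79, edgeR adjusted p = 7.36e-06), Ctla4 by 2.59 (SE 0.38, edgeR adjusted p = 3.99e-05), the interferon-inducible Ifi27l2a by 2.50 (SE 0.46, edgeR adjusted p = 0.00201), Pmepa1, a brake on TGF-beta signalling, by 3.38 (SE 0.74, edgeR adjusted p = 0.0187), Il2ra by 2.14 (SE 0.48, edgeR adjusted p = 0.0237), the class I gene H2-Q7 by 1.70 (SE 0.41, edgeR adjusted p = 0.0479) and Zfp51, which was read in 3 Foxp3 cells only. H2-Q7 has near-identical neighbours, and reads could be split among them. Ccr2, Ikzf2, Tnfrsf18 and Klrg1, named above as higher in the Foxp3 cells of every pool, were not among the genes called.

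Nkg7 fell, with 2 reads in the Foxp3 cells and 779 in the others (edgeR adjusted p = 5.80e-06). On the log2 scale Ccl5 fell by 6.71 (SE 0.81, edgeR adjusted p = 1.15e-06), Tcf7 fell by 5.42 (SE 0.93, edgeR adjusted p = 0.000843) and Cxcr6 fell by 5.03 (SE 1.14, edgeR adjusted p = 0.0264). Ctsw was at least 42.6-fold lower, with the Foxp3 cells set to 3 reads over the pools. Mcpt8, Hdc, Mcpt4, Csf2rb, Tyrobp and Ccl3 fell as well. These are genes of mast cells, basophils or other myeloid cells, and the 9 members with a granulocyte list at 1000 CPM hold from 90.2% (Tyrobp) to 99.95% (Mcpt8) of their reads. Without barcodes with markers of other cell types, 21 genes were called, 8 higher and 13 lower. This fit held WT day 3 and Ccr2-/- day 3 only, since Ccr2-/- day 5 kept 4 Foxp3 cells, under the limit of 5. It had 1 residual degree of freedom. Leaving out Ccr2-/- day 5 alone also moved the count of calls, to 62. The 21 thus combine both changes, and whether the calls hold without such barcodes in the same pools was not tested. By list, 3 of 12 tested regulatory genes were higher with a median of 2.37, 4 of 11 cytotoxic genes were lower with a median of -6.71, and of costimulation and checkpoint genes 2 of 11 were higher. Of the cytokine list, 4 of 15 were lower, and of the receptor signalling list 0 of 14 passed in either direction. Leaving out WT day 3 left 3 calls and leaving out Ccr2-/- day 3 left 2, all lower, while leaving out Ccr2-/- day 5 gave 62, so that no gene was called higher without either of WT day 3 and Ccr2-/- day 3. Foxp3 cells could not be set against other CD4 cells, since 1 pool alone held 5 cells of each.

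CD8 and CD4 members were compared in the Ccr2-/- pools, the only ones with at least 5 cells in each class (9 against 8 and 7 against 9). Of 4218 genes, 13 were called (0.308% of genes), all higher in the CD8 members. Of these, 3 are genes of cytotoxic lymphocytes: Nkg7, with 262 reads in the CD8 members and 1 in the CD4 members (edgeR adjusted p = 2.67e-05), Ccl5, with 422 and 1 (edgeR adjusted p = 2.67e-05), and Ctsw, at least 48.1-fold higher against 3 reads. The other 10, among them Il1b, S100a8, S100a9 and Hdc, include genes known from granulocytes and other myeloid cells, and 5 of the 9 CD8 members of Ccr2-/- day 3 had no receptor read. In the members with a receptor read, 23 CD8 cells against 25 CD4 cells had Ccl5 at 1454 against 30.3 CPM, Nkg7 at 896 against 136, Prf1 (perforin) at 156 against 4.79 and Klrd1 at 152 against 3.19, each higher in 4 of 4 pools. Gzmb, at 596 against 916 CPM, was higher in the CD8 cells of 1 of 4 pools, and Ctla4, at 1088 against 1720 CPM, likewise. These values carry no test, since too few cells were left. A cell with a Cd8b1 read and no Cd8a read counted as CD8. Of the members with both a receptor read and a Foxp3 read, 11 had a Cd8b1 read and none a Cd8a read.

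Finally, members with a receptor read were set beside the 60 gamma-delta and the 214 NK cells, the most similar cells in the matrix, as pooled CPM and by pool (WT day 5 held 2 gamma-delta cells). Ctla4 stood at 1002 CPM against 72.6 in gamma-delta and 159 in NK cells, and Cd5, an inhibitory receptor of T cells, at 195 against 19.8 and 0, each higher in the members of 4 of 4 pools for both comparisons. Il1rl1 stood at 325 against 14.1 and 2.77 CPM and Foxp3 at 254 against 36.8 and 0, also in 4 of 4 pools. Gamma-delta cells were above the members in all 4 pools for Blk, a kinase they use, at 524 against 16.3 CPM, and for Cxcr6 at 486 against 167. NK cells were above the members in all 4 pools for Gzma at 22681 against 337 CPM, Gzmb at 6246 against 941, Prf1 at 1119 against 65.0 and Eomes, a regulator of cytotoxic cells, at 475 against 31.1. These contrasts were not tested, because the rules that chose the 3 sets exclude each other, and 1 pool holds few cells.

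**Figure D5:**
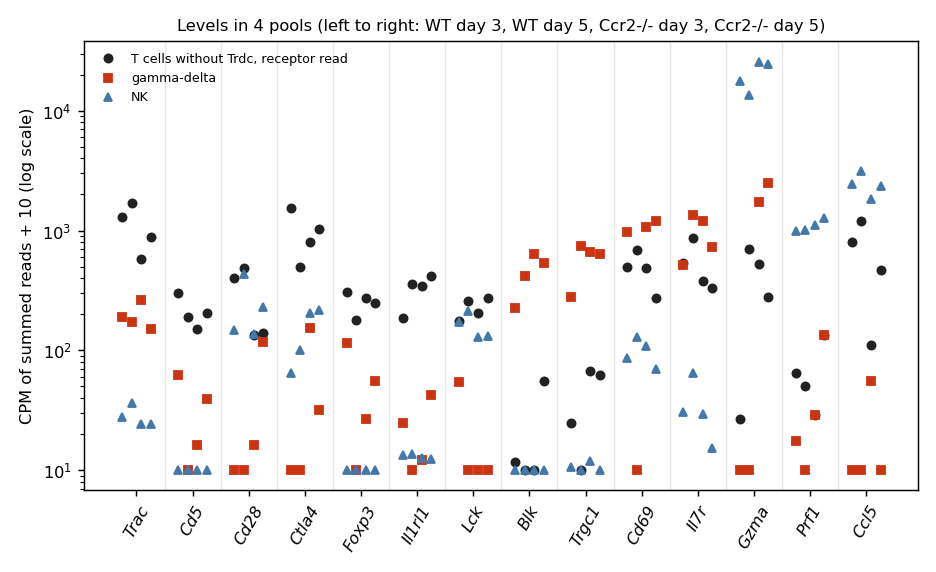
Levels in members with a receptor read, gamma-delta cells and NK cells, with each pool as a point, as CPM of summed reads plus 10 on a log scale. Ctla4, Cd5 and Foxp3 are higher in the members of all 4 pools, Blk in gamma-delta cells and Gzma and Prf1 in NK cells.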

How the data were processed

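The deposited files hold counts: reads per gene and barcode, and hashtag reads per barcode. The authors made them with Cutadapt and Bowtie2 against mouse RNA of build GRCm38.p6 and cut the barcodes at the inflection point of a knee plot, per the labels and the methods. The methods also describe a correction that subtracts background reads of each gene arising from RNA diffusion. Whether the deposited counts are from before or after that correction was not tested. The counts are reads, not molecules, and no replicates were pooled by the authors beyond the mice of a pool. A barcode was given to a pool when its highest hashtag, relative to that hashtag's total, was at least 3 times the next, after a pseudocount of 1 and with at least 10 hashtag reads. This left 23 members without a pool. The matrix of hashtags had 9 further columns that were not used.

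Members and gene lists were chosen with earlier results of these data known. Summed counts per pool, or per pool and class, were tested with edgeR 4.0.16 (R 4.3.3, TMM, quasi-likelihood F test, genes filtered by filterByExpr), with calls at an adjusted p of 0.05 or less. The fits were also run on simulated summed counts. These held no differences between single cells, so that they cannot show how the fits treat genes whose reads come from few cells. Each SE printed with an edgeR fold change is the size of that log2 fold change divided by the square root of its F statistic. DESeq2 1.42.0 was an alternative. Classes needed 5 cells in a pool, after thinning to 10000 reads. Shares of cells carry exact binomial and levels exact Poisson 95% intervals, which cover counting error only. Pool shares were compared by the two-sided exact permutation test over 6 splits, whose smallest p is 0.33. Genes named were those of the lists and up to 15 genes a direction with the smallest adjusted p and the same sign in every pool pair, without gene models, and the genes that part members with a receptor read from those without were added after their values were seen. Doublets were not called. Promoters are from RefSeq, and all 3 CD3 genes matched. Left-out barcodes, other hashtag limits, filters, scalings and depths were tried as alternatives. A few genes of the fixed lists are not reported here.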

Additional observations from a re-analysis of the deposited data

Results flagged for a closer look

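In 2 shares the difference between the genotypes had opposite signs at the 2 days. The share of cells that were members with a receptor read was lower in Ccr2-/- than in WT at day 3, by -0.337 percentage points, and higher at day 5, by 0.678 points. The share of Foxp3 cells among these members was lower in Ccr2-/- at day 3, by -1.36 points, and higher at day 5, by 2.35 points. With 1 pool for each genotype and day the difference between the days was not tested. No group held 4 or more samples, so that a sample apart from its group could not be sought.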

How the results depend on the processing

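Of 75 alternatives, 46 kept the direction of a difference in shares or a count of calls within 1.5 times, 24 moved a count of calls by over 1.5 times and 5 turned a direction. The CD8 share kept its direction under all 11 alternatives. The difference in the share of members (1.66 points) became 1.06 points with a CD3 limit of 200 CPM, 0.171 in members with a receptor read, 2.90 among cells with a Ptprc read and -0.114 points without barcodes with markers of other cell types. That in the CD4 share (7.79) became 17.3 points in members with a receptor read, 16.7 without barcodes with other markers, 2.304 with another random thinning, -0.354 points with thinning to 5000 reads and -3.77 points without thinning at 50 CPM or more. That in the Foxp3 share became 0.478 points without such barcodes and 0.498 points in members with a receptor read. Genes called between genotypes (28) were 114 by DESeq2, 17 with its size factors, 91 with library sizes only (78 higher, 13 lower), 132 without the filter, 0 at a hashtag ratio of 10 (374 at an unadjusted p under 0.05), 4 without barcodes with other markers, 86 with thinned cells, 7 with a receptor read and 0 with both restrictions. Between days (0) they were 4 by DESeq2, 8 with library sizes only, 20 without the filter, and 1 each without barcodes with other markers, with thinned cells and with a receptor read. Between CD8 and CD4 members (13) they were 25 by DESeq2, 21 without the filter and 1 with thinned cells. For Foxp3 cells (30) they were 65 by DESeq2, 57 without the filter, 17 with thinned cells and 2 to 62 when 1 pool was left out, with 12 higher and 21 lower under library sizes only. The adjusted p of Ccr2 over all members was 0.0205, and over its alternatives it ranged from 1.47e-09 without the filter to 0.628, with 0.212 at a hashtag ratio of 10. Restrictions to members with a receptor read in the fits were chosen after seeing the data, and so was the comparison of Foxp3 cells with all others. The fits of CD8 against CD4 in members with a receptor read or without other markers, and with 1 pool left out, were not run, for too few cells or no residual degree of freedom, nor were genotype fits with a pool left out. The cause of the moved values was not tested. The labels give the pools no replicate numbers, so that pools were matched by day in the genotype fits and by pool in the class fits only. A gene read in under 5 cells of a pool cannot be compared at this depth.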

Other observations

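The rule also kept 23 barcodes with no clear hashtag, which entered no comparison. Of these, 9 had fewer than 10 hashtag reads and 14 carried several hashtags, and their median depth was 9470 reads. A receptor read was found in 12, a Foxp3 read in 5, and a neutrophil list of at least 1000 CPM in 6.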
